A study of Rattus norvegicus with 15 samples.

Results

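The redox, glutathione and detoxification enzymes of rat adrenal medullary tissue were followed by RNA-seq from normal medulla (WT) through medullary hyperplasia (HYP) to pheochromocytoma (PCC), a tumor of the chromaffin cells. The genes were chosen by a rule on symbols among those in the deposited tables and include glutathione S-transferases, peroxidases, peroxiredoxins, thioredoxins, superoxide dismutases, aldehyde dehydrogenases, flavin monooxygenases, sulfotransferases and metallothioneins. Of the 8621 genes in the deposited tables, 73 matched, in 19 of the 20 families searched, and no epoxide hydrolase was listed. Values in all 15 samples are at hand for 56 of them and values in 10 samples for 17, and 30 are in all 3 tables. Each table holds only genes that the authors had called between 2 groups on these same samples, so counts of calls are not independent support. Of 36 central genes looked for by name, 25 are listed. *Gpx3*, *Prdx4*, *Txnrd1*, *Gclm*, *Gsr*, *Nfe2l1*, *Keap1*, *Mt1*, *Mt1a*, *Mt3* and *Ephx1* are not analysed here.

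The 5 WT rats were wildtype and 7 to 9.5 months old, and the labels spell the strain Sprague-Dawely for all groups. The 5 HYP rats (4 to 5 months) and the 5 PCC rats (7 to 9.5 months) were of the MENX genotype, which arose in that strain and carries a germline frameshift in *Cdkn1b*, the gene of the cell cycle inhibitor p27. No WT rats of the HYP age were analysed, so age cannot be told apart from genotype and stage in HYP against WT. *Cdkn1b* reads ranged from 45.5 to 71.1 depth-scaled counts (CPM) in WT, 81.5 to 126 in HYP and 109 to 176 in PCC, and counts per gene do not show a frameshift. Libraries held 16315018 to 23831269 reads on genes.

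The labels name the tissue as medulla with chromaffin cells, and the methods state that the cortex was dissected away. Cortex transcripts were nevertheless abundant. The 9 adrenal cortex markers with values in every sample, among them the steroidogenic genes *Star* and *Cyp21a1*, summed to 19133 to 45340 CPM in WT, 10319.9 to 24007 in HYP and 757 to 11682 in PCC, and none was at 0 in any sample. The 10 chromaffin markers with values in every sample, such as *Th* and *Dbh* of catecholamine synthesis, summed to 2094 to 9188 CPM in WT, 10813 to 16025 in HYP and 19221 to 38376 in PCC. WT replicate 5 stood apart, with the lowest chromaffin sum of all samples and, close to replicate 4, the highest cortex sum. In bulk tissue, fewer cells of a type and less RNA per cell cannot be told apart, and this holds for every result that follows.

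Glutathione, a tripeptide thiol, and the small protein thioredoxin are the main reducing systems of the cell. Peroxiredoxins and glutathione peroxidases use them to remove peroxides that superoxide dismutases generate from superoxide, and glutathione S-transferases use glutathione to tag reactive compounds for export. In the adrenal gland, mitochondrial steroid hydroxylation in the cortex leaks electrons to oxygen, and in the medulla the oxidation of catecholamines yields hydrogen peroxide and reactive aldehydes. NRF2, encoded by *Nfe2l2*, is the transcription factor best known for inducing many of these enzymes.

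Most of the genes were lower in the tumors than in normal medulla. In PCC vs. WT, 68 of the 70 listed members passed the filter on low counts (*Ugt8* and *Mt1m* did not), 50 were lower, 9 higher and 9 did not pass the test. Of all 7001 genes tested there, 85.2% were called, 38.5% lower and 46.7% higher. The members' log2 fold changes had a median of -1.32 and ran from -3.55 to 4.26, beside a median of 0.44 over all genes tested. The PCC and WT values did not overlap for 53 of the 68 members, and for 63.5% of all genes tested. In 44 of the 53 the PCC values were the lower ones, beside 1826 of the 4449 genes without overlap (26.1% of all genes tested).

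In HYP vs. WT, 44 of 45 listed members were tested, 31 were lower, 3 higher and 10 not past the threshold, where 72.1% of all 4108 genes were called, 32.5% lower and 39.5% higher. The median log2 fold change was -0.66, beside -0.37 over all genes. In PCC vs. HYP, 21 of 44 members were lower, 2 higher and 21 not past the threshold, where 44.4% of 3148 genes were called, 22.6% lower and 21.8% higher. The median there was -1.13, beside 0.43 over all genes. Groups did not overlap for 25 members in HYP vs. WT (55.8% of all genes) and for 26 in PCC vs. HYP (53.5% of all genes). PCC was the lower group in 23 of these 26, beside 22.0% of all genes, and HYP in 21 of the 25, beside 21.0%. The 3 comparisons share their samples pairwise. With each sample scaled by its summed listed counts in place of TMM factors, the split of higher and lower calls was 11 and 32 in PCC vs. WT, 5 and 4 in HYP vs. WT and 3 and 8 in PCC vs. HYP. Of all genes, 66.3%, 53.6% and 35.2% were called in either direction under this scaling. Scaled to library totals, the split was 11 and 43, 4 and 16, and 3 and 13, beside 73.0%, 58.1% and 46.1% of all genes called. The first scaling moved the median log2 fold change of all genes up by 0.50, 0.46 and 0.15 in the 3 comparisons and the second by 0.29, 0.19 and 0.22, so a change of a member is to be read relative to such shifts.

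**Figure D1:**
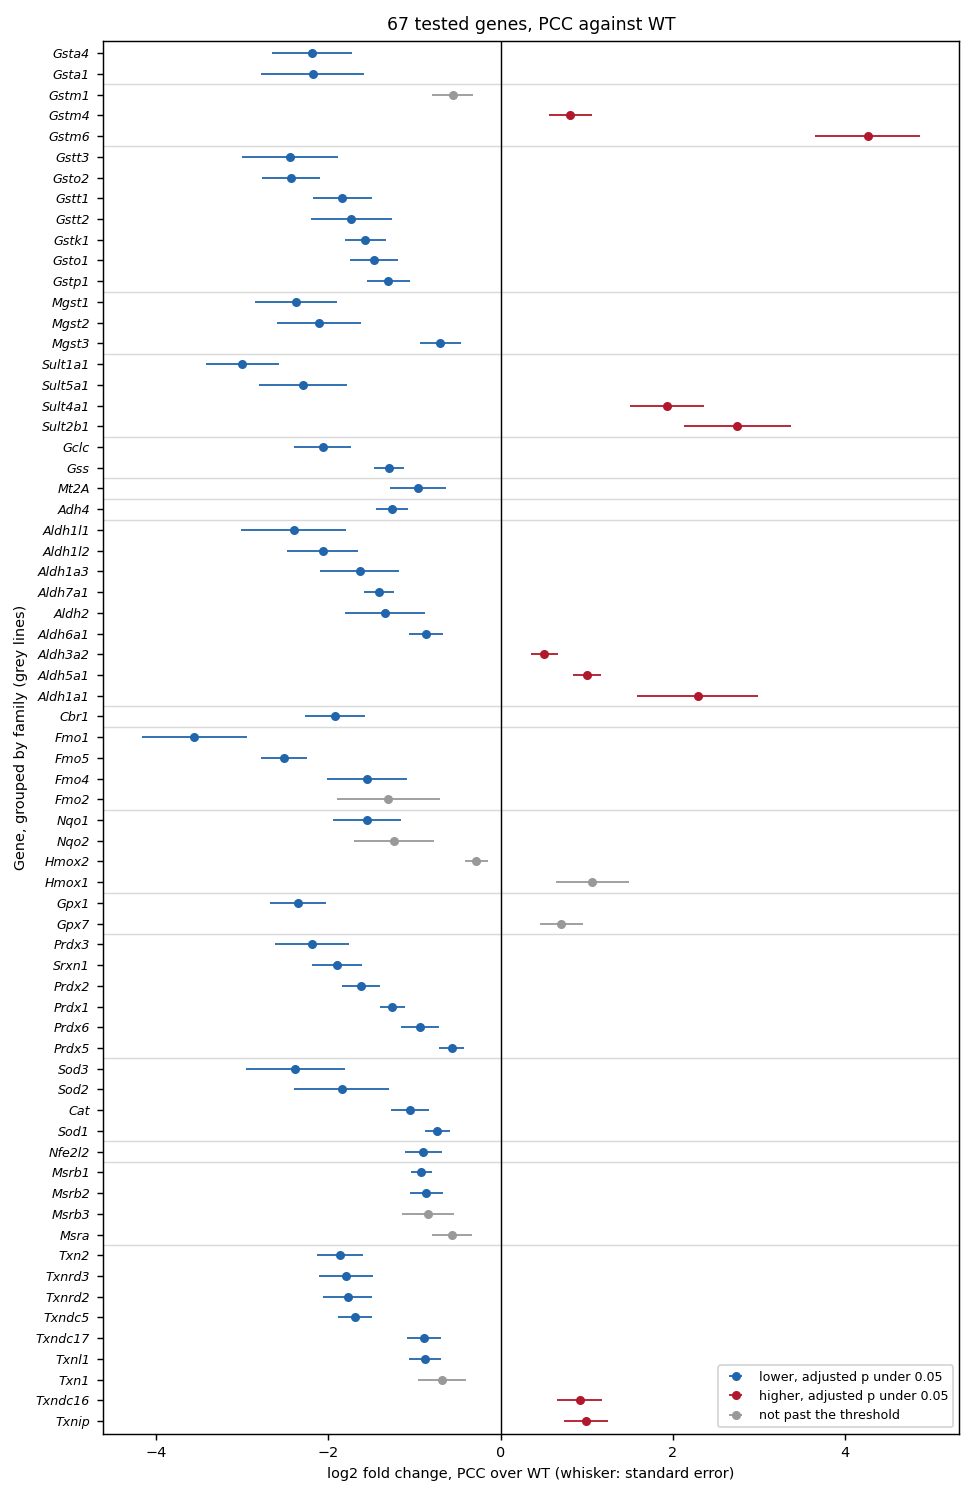
The log2 fold change of PCC over WT (x axis) is plotted for 67 of the 68 tested genes, grouped by family on the y axis, with whiskers for the standard error. The genes lower in PCC (blue) lie left of 0 in nearly all families, and the 9 higher genes (red) are scattered over the mu-class transferases, sulfotransferases, aldehyde dehydrogenases and the thioredoxin system.

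**Figure D2:**
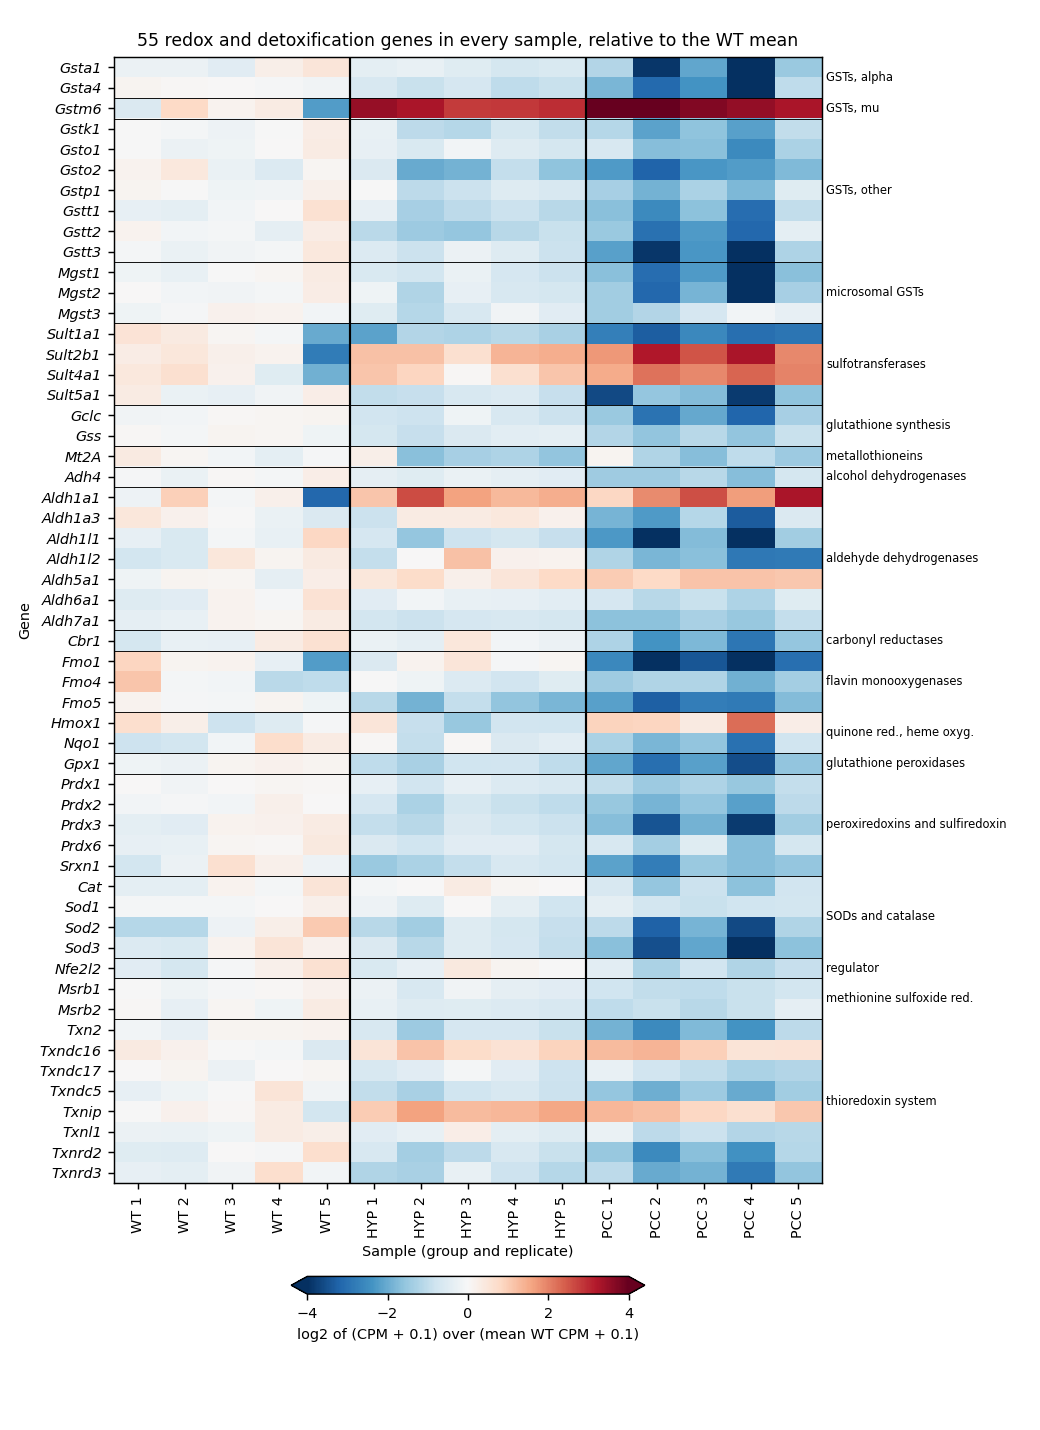
Each cell of the grid gives the log2 ratio of a gene's CPM in 1 sample (columns) to the WT mean, with 0.1 CPM added to both, for 55 of the 56 genes with values in all 15 samples (rows, by family), with the colour scale ending at -4 and 4. Blue deepens from HYP to PCC in most rows, and PCC replicates 2 and 4 are the darkest columns.

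Below, values are CPM in replicates 1 to 5 of each group, and log2 fold changes are given with their standard error and the adjusted *p* of edgeR's quasi-likelihood test after Benjamini-Hochberg correction. Positions are those of the files, on the Rn06 build, and span the whole gene. Both listed genes of glutathione synthesis, *Gclc* and *Gss*, were lower at each step. *Gclc* encodes the catalytic subunit of glutamate-cysteine ligase, the rate-limiting enzyme of the pathway (chr8:85059051-85097468, plus strand), and measured 326, 332, 373, 381 and 387 CPM in WT, 214, 204, 319, 231 and 197 in HYP and 128, 46.0, 86.3, 39.9 and 143 in PCC. The groups did not overlap in any pair, and the HYP value nearest to WT was that of replicate 3. The log2 fold change was -2.07 ± 0.33 in PCC vs. WT (adjusted *p* = 0.000956), -0.66 ± 0.17 in HYP vs. WT (0.0196) and -1.50 ± 0.36 in PCC vs. HYP (0.0292). *Gss* (chr3:151076254-151106557, minus strand), glutathione synthetase, which adds glycine in the last step, measured 58.2, 53.3, 60.9, 58.8 and 50.1 CPM in WT, 34.8, 29.7, 37.4, 41.9 and 42.5 in HYP and 25.0, 18.7, 25.8, 18.6 and 30.2 in PCC. It lay lower in both MENX groups than in every WT sample, while PCC replicate 5 reached into the HYP range. The change was -1.30 ± 0.17 in PCC vs. WT (adjusted *p* = 0.000366), -0.64 ± 0.14 in HYP vs. WT (0.00972) and -0.77 ± 0.19 in PCC vs. HYP (0.0330).

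The glutathione peroxidase *Gpx1*, the main cytosolic selenoenzyme that reduces hydrogen peroxide, went down in equally clear steps. Its gene lies at chr8:117117430-117118522 on the plus strand, and it measured 516, 489.9, 625, 649 and 632 CPM in WT, 287, 239, 333, 341 and 286 in HYP and 139, 72.0, 129, 49.3 and 196 in PCC. No value of one group reached into another, with log2 fold changes of -2.35 ± 0.33 in PCC vs. WT (adjusted *p* = 0.000475), -1.0 ± 0.15 in HYP vs. WT (0.00172) and -1.45 ± 0.34 in PCC vs. HYP (0.0261). *Gpx4*, which reduces lipid peroxides, is listed only in HYP vs. WT, under a gene model with few reads: 2.75, 0.900, 1.01, 0.660 and 0.654 CPM in WT and 0.314, 0.336, 0, 0.459 and 0.255 in HYP. It did not pass the filter, its model overlaps *Sbno2* on the other strand, and the counting is not stated to use strand. *Gpx7*, a peroxidase of the endoplasmic reticulum, had its 5 PCC values (6.06 to 9.46 CPM) above its 5 WT values (3.27 to 5.40 CPM), with a log2 fold change of 0.70 ± 0.25 that did not pass the test (adjusted *p* = 0.0506).

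All 6 listed peroxiredoxin and sulfiredoxin genes were lower in PCC than in WT, and the 5 tested in HYP vs. WT were lower there too. Peroxiredoxins are abundant thiol peroxidases, *Prdx1* and *Prdx2* in the cytosol and *Prdx3* in mitochondria. *Prdx3* measured 792, 751, 1146, 1156 and 1301 CPM in WT, 531, 475, 690.1, 625 and 573 in HYP and 317, 93.5, 278, 71.6 and 392 in PCC. It fell by 2.19 on the log2 scale in PCC vs. WT (SE 0.43, adjusted *p* = 0.00290) and by 0.86 in HYP vs. WT (0.00959), with no overlap. PCC replicates 2 and 4 were lowest, and the difference between PCC and HYP missed the threshold (-1.43 ± 0.43, adjusted *p* = 0.0628).

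*Prdx2* had the highest FPKM of all members in WT, a median of 1085, and 382 in PCC. On the CPM scale it measured 946, 980.4, 944, 1161 and 1026 CPM in WT, 638, 424, 626, 545 and 501 in HYP and 357, 279, 343, 226 and 485 in PCC. Both MENX groups lay below all WT samples, with log2 fold changes of -1.62 ± 0.22 in PCC (adjusted *p* = 0.000428) and -0.92 ± 0.16 in HYP (0.00330), and PCC replicate 5 reached into HYP. *Prdx1* measured 244, 216, 241, 253 and 249 CPM in WT, 190.5, 143, 192, 164 and 154 in HYP and 121, 88.6, 101, 83.4 and 123 in PCC, 3 groups with no overlap. Its log2 fold changes were -1.26 ± 0.15 in PCC vs. WT (adjusted *p* = 0.000228), -0.55 ± 0.14 in HYP vs. WT (0.0177) and -0.82 ± 0.19 in PCC vs. HYP (0.0237).

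*Prdx6*, which also acts on phospholipid peroxides, measured 172, 175, 224, 221 and 281 CPM in WT, 143, 123, 156, 158 and 131 in HYP and 138, 83.7, 152, 65.7 and 132 in PCC. The MENX values lay below every WT value and the PCC values lay within or below the HYP range (-0.94 ± 0.22 in PCC vs. WT, adjusted *p* = 0.00769; -0.63 ± 0.16 in HYP vs. WT, 0.0185). *Prdx5*, listed for PCC and WT only, measured 80.9, 74.4, 79.8, 91.8 and 119 CPM in WT and 71.6, 47.8, 55.4, 60.7 and 70.3 in PCC (-0.57 ± 0.15, adjusted *p* = 0.0117), a narrow gap without overlap. *Srxn1*, sulfiredoxin, restores overoxidized peroxiredoxins and measured 30.9, 43.0, 79, 58.4 and 44.3 CPM in WT, 18.1, 21.0, 26.4, 32.7 and 30.4 in HYP and 11.6, 7.36, 18.2, 15.5 and 17.4 in PCC. Only HYP replicate 4 reached the lowest WT sample, and the change was -1.90 ± 0.29 in PCC vs. WT (adjusted *p* = 0.000722), -1.02 ± 0.25 in HYP vs. WT (0.0151) and -1.0 ± 0.26 in PCC vs. HYP (0.0391).

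The superoxide dismutases and catalase did not share 1 time course. *Cat*, the peroxisomal catalase, measured 162, 159, 230.2, 198 and 301 CPM in WT, 200.4, 211, 263, 222 and 212 in HYP and 134, 72.1, 117, 67.1 and 124 in PCC. HYP values lay within the WT range, the gene is not listed for HYP vs. WT, and the PCC values lay below all others (-1.05 ± 0.22 vs. WT, adjusted *p* = 0.00418; -1.22 ± 0.23 vs. HYP, 0.0128). *Sod2*, the mitochondrial manganese enzyme, varied most of the 4 within WT and measured 849.6, 849.6, 1624, 2167 and 3798 CPM in WT, 858, 707, 1303, 1150.4 and 979.7 in HYP and 903, 196, 516, 152 and 805 in PCC. WT replicates 1 and 2 were at about the level of HYP, and PCC replicate 1 lay above them, so all 3 groups overlapped (-1.85 ± 0.55 in PCC vs. WT, adjusted *p* = 0.0229; -0.91 ± 0.38 in HYP vs. WT, 0.146). With the cortex marker level of each sample as a covariate its PCC vs. WT value was 0.16. The order of its 5 WT samples, from replicates 1 and 2 up to replicate 5, was that of the cortex marker sums above.

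*Sod3*, the secreted enzyme, measured 609, 583, 1001, 1297 and 1004 CPM in WT, 608, 416, 625, 560.2 and 462 in HYP and 281, 78.1, 214, 20.4 and 286 in PCC. PCC values were below all others, down to 20.4 CPM in replicate 4 (-2.38 ± 0.58 vs. WT, adjusted *p* = 0.00826), and the difference from HYP missed the threshold (-1.70 ± 0.56, 0.0803). In HYP vs. WT the change was -0.77 ± 0.23 (adjusted *p* = 0.0359). *Sod1*, the cytosolic copper-zinc enzyme, moved least of the 4 in PCC vs. WT and measured 276, 277, 279, 293 and 335 CPM in WT, 251, 205, 292, 223 and 169 in HYP and 225, 175, 157, 166 and 174 in PCC. PCC and WT did not overlap (-0.74 ± 0.15, adjusted *p* = 0.00283), and HYP vs. WT did not pass (-0.39 ± 0.17, 0.178). Scaled by the summed listed counts, its HYP vs. WT log2 fold change was 0.061, with the sign changed, and did not pass either.

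**Figure D3:**
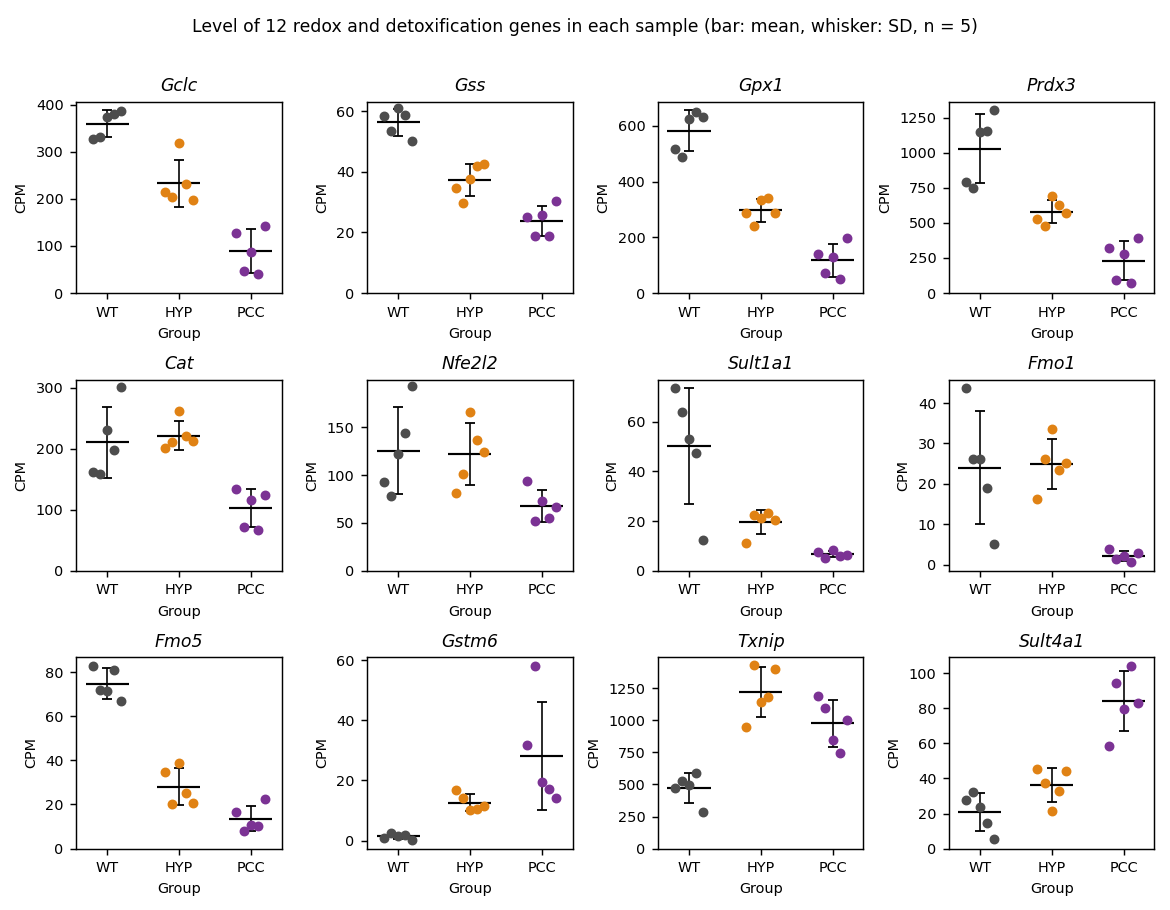
CPM (y axes) of 12 genes in the 5 samples (points) of each group (x axes), with the mean as a horizontal line and the SD as a whisker. Gclc, Gss, Gpx1, Prdx3, Sult1a1 and Fmo5 step down from WT to HYP to PCC, Cat, Nfe2l2 and Fmo1 stay level until PCC, and Gstm6, Txnip and Sult4a1 are higher in PCC than in WT.

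In the thioredoxin system, 6 of 9 tested members were lower in PCC than in WT and 2 were higher. *Txn2*, the mitochondrial thioredoxin, measured 369, 317, 423, 429 and 435 CPM in WT, 255, 144, 250.2, 246 and 212 in HYP and 106, 68.1, 115, 74.5 and 191 in PCC. WT lay above both other groups throughout, with log2 fold changes of -1.87 ± 0.26 in PCC (adjusted *p* = 0.000500) and -0.87 ± 0.18 in HYP (0.00767), and PCC vs. HYP gave -1.11 ± 0.30 (0.0419) with replicate 5 inside the HYP range. Its reductase *Txnrd2* measured 76.6, 75.3, 108, 104 and 172 CPM in WT, 69.1, 41.6, 51.5, 68.5 and 58.1 in HYP and 37.7, 18.0, 33.8, 20.1 and 48.6 in PCC. It also separated from WT in both groups (-1.77 ± 0.29 in PCC, adjusted *p* = 0.000966; -0.92 ± 0.23 in HYP, 0.0170). *Txndc5*, a disulfide isomerase of the endoplasmic reticulum, measured 322, 364, 402, 581 and 373 CPM in WT, 206, 167, 237, 262 and 224 in HYP and 141, 105, 148, 101 and 155 in PCC. The 3 groups did not overlap, with -1.69 ± 0.20 in PCC vs. WT (adjusted *p* = 0.000223), -0.93 ± 0.18 in HYP vs. WT (0.00564) and -0.87 ± 0.20 in PCC vs. HYP (0.0246).

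Cytosolic *Txn1* did not follow its mitochondrial counterpart past the threshold. It measured 68.5, 59.9, 51.5, 67.6 and 58.9 CPM in WT and 74.7, 36.0, 31.3, 24.1 and 31.5 in PCC, where 4 samples lay below all of WT and replicate 1 above (-0.68 ± 0.28, adjusted *p* = 0.0862). *Txnip* (chr2:198683159-198686974, plus strand), which binds and inhibits thioredoxin and also restrains glucose uptake, moved the other way. It measured 474, 531, 494, 592 and 283 CPM in WT, 951, 1434, 1141, 1184 and 1398 in HYP and 1190.0, 1099.8, 849.6, 744 and 999.7 in PCC. All 10 MENX samples exceeded all WT samples, with the rise already present in HYP (1.32 ± 0.21, adjusted *p* = 0.00197; PCC vs. WT 0.99 ± 0.25, 0.0117). *Txnip* is not listed for PCC vs. HYP. *Txndc16*, a thioredoxin-domain protein of the endoplasmic reticulum, measured 20.2, 17.7, 15.7, 15.0 and 10.7 CPM in WT, 22.5, 34.8, 26.3, 23.6 and 29.4 in HYP and 37.8, 41.2, 31.1, 22.6 and 23.2 in PCC. It was higher than every WT sample in both groups (0.73 ± 0.20 in HYP, adjusted *p* = 0.0273; 0.92 ± 0.26 in PCC, 0.0183). The remaining members of the system, *Txndc17*, *Txnl1* and *Txnrd3*, had PCC vs. WT changes between -1.79 and -0.88. Of the 4 tested methionine sulfoxide reductases, which repair oxidized methionine, *Msrb1* and *Msrb2* were lower (-0.92 and -0.86) and *Msra* and *Msrb3* did not pass.

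The regulator *Nfe2l2* (chr3:62497571-62524996, minus strand) measured 92.5, 77.9, 122, 144 and 193 CPM in WT, 81.7, 101, 165, 137 and 124 in HYP and 93.3, 52.1, 73.2, 54.7 and 66.4 in PCC. HYP and WT had like ranges, the gene is not listed for that pair, and 4 of the 5 PCC samples lay below all WT and HYP samples. PCC replicate 1 overlapped with both, and the change was -0.90 ± 0.22 vs. WT (adjusted *p* = 0.00803) and -0.96 ± 0.24 vs. HYP (0.0318). *Nqo1*, a quinone reductase, measured 10.01, 10.6, 16.4, 29.0 and 22.4 CPM in WT, 18.3, 9.12, 18.4, 11.8 and 13.2 in HYP and 7.29, 4.86, 5.91, 2.14 and 10.2 in PCC. PCC replicate 5 just reached the lowest WT samples (-1.55 ± 0.40 vs. WT, adjusted *p* = 0.0112), and the fall from HYP missed the threshold (-1.33 ± 0.38, 0.0542).

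*Hmox1*, the inducible heme oxygenase, measured 94.0, 69.7, 32.8, 41.1 and 57.1 CPM in WT, 83.1, 31.1, 20.3, 34.9 and 33.6 in HYP and 109, 108, 75.8, 277 and 70.8 in PCC. PCC replicate 4 was far above the rest, and HYP replicate 1 above the other HYP samples. The pairwise tests missed the threshold, at 1.06 ± 0.43 in PCC vs. WT (adjusted *p* = 0.0826) and 1.53 ± 0.44 in PCC vs. HYP (0.0525), and the latter passed when all 15 samples entered 1 fit (1.70 ± 0.44, 0.0240). With the cortex level as a covariate the PCC vs. WT value turned to -0.49 (adjusted *p* = 0.742), and it passed when scaled by the summed listed counts (1.57, 0.0199) or by library totals (1.36, 0.0386). Constitutive *Hmox2* and the quinone reductase *Nqo2*, listed for PCC and WT only, did not pass (-0.28 and -1.24).

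The antioxidant response element bound by NRF2 was searched as TGACNNNGC on both strands in the 300 bases around each RefSeq start site (250 before and 50 after, assembly GRCr8), which are at hand for 59 of the 73 genes. It occurred in 12 of the 59 (20.3%) and in 12.2% of all 27457 promoters. Of those 12, 10 were lower in PCC than in WT and none was higher, beside 73.5% and 13.2% of the 68 tested members. The median change of the tested members with a match was -0.96, beside -1.44 for the members without a match. The other 2 are *Aldh16a1*, not listed for this pair, and *Hmox2*, which did not pass. A match is a description of letters in a window, not a site. Upstream stretches of *Gstp1* and *Prdx1*, a transferase and a peroxiredoxin that both fell, are shown with the matched letters in capitals, 5′ to 3′ in the direction of the gene and ending at the base before the start site. They lie at chr1:210769706-210769805 on the minus strand and chr5:135383756-135383905 on the plus strand of GRCr8.
Gstp1: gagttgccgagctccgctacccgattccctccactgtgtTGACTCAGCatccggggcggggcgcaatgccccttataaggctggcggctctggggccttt
Prdx1: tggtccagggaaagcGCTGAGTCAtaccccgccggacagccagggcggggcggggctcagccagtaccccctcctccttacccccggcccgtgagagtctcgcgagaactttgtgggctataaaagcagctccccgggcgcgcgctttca
In *Gstp1* the element stands in the gene's direction, in *Prdx1* in the reverse direction. *Gstp1* measured 187, 171, 155, 157 and 199.6 CPM in WT, 172, 83.8, 94.9, 122 and 111 in HYP and 68.9, 47.0, 71.9, 49.95 and 125 in PCC, with PCC below all WT samples (-1.30 ± 0.25, adjusted *p* = 0.00250) and HYP overlapping with WT through replicate 1 (-0.62 ± 0.19, 0.0451).

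Of the 15 listed glutathione transferases, 12 were lower in PCC than in WT, 2 were higher and *Gstm1* did not pass (-0.55 ± 0.24, adjusted *p* = 0.110). The cytosolic theta-class *Gstt3* measured 382, 337, 368, 386 and 546 CPM in WT, 276, 224, 346, 284 and 222 in HYP and 90.4, 27.3, 80.2, 11.9 and 171 in PCC. PCC values were below all HYP and WT values, and WT replicate 5 stood above the other WT samples (-2.44 ± 0.56 in PCC vs. WT, adjusted *p* = 0.00627; -0.61 ± 0.19 in HYP vs. WT, 0.0423). Its neighbour *Gstt2* measured 31.9, 26.5, 27.3, 22.6 and 35.4 CPM in WT, 13.6, 10.4, 9.80, 13.3 and 15.3 in HYP and 10.3, 3.56, 5.86, 3.14 and 21.8 in PCC, lower than WT in both groups without overlap (-1.25 ± 0.18 in HYP, adjusted *p* = 0.00130; -1.73 ± 0.47 in PCC, 0.0160). *Gsta4*, which conjugates the lipid peroxidation product 4-hydroxynonenal, measured 53.9, 51.4, 50.6, 48.8 and 44.9 CPM in WT, 31.7, 26.6, 31.0, 24.8 and 26.9 in HYP and 14.1, 5.73, 9.36, 2.85 and 24.8 in PCC. Its groups stepped down without overlap (-2.19 ± 0.46 in PCC vs. WT, adjusted *p* = 0.00399; -0.87 ± 0.14 in HYP vs. WT, 0.00196), though PCC replicate 5 and HYP replicate 4 met, and PCC vs. HYP missed the threshold (-1.41 ± 0.46, 0.0803).

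*Mgst1*, a membrane-bound transferase of the endoplasmic reticulum and outer mitochondrial membrane, had a median of 407 FPKM in WT and 106 in PCC. On the CPM scale it measured 384, 351, 424, 449 and 539 CPM in WT, 281, 256, 358, 267 and 236 in HYP and 133, 51.9, 89.6, 13.7 and 136 in PCC. PCC lay below all other samples, lowest in replicate 4 (-2.37 ± 0.48 vs. WT, adjusted *p* = 0.00311; -1.82 ± 0.49 vs. HYP, 0.0417), and HYP overlapped with WT only through replicate 3 (-0.65 ± 0.17, 0.0209). *Gsta1*, the most abundant transferase in WT by FPKM (median 644), measured 497, 493, 427, 679.8 and 813 CPM in WT, 449, 475, 412, 357 and 382 in HYP and 258, 39.1, 139, 16.3 and 207 in PCC. Its PCC samples lay below all WT samples, with replicate 4 lowest and replicate 1 highest (-2.18 ± 0.60, adjusted *p* = 0.0160), and HYP vs. WT did not pass (-0.53 ± 0.18, 0.0722). The other transferases that were lower in PCC (*Gstk1*, *Gsto1*, *Gsto2*, *Gstt1*, *Mgst2* and *Mgst3*) had log2 fold changes between -2.43 (*Gsto2*) and -0.70 (*Mgst3*). *Gsto1* and *Gsto2* overlap on chromosome 1 on the same strand, and genes of the alpha, mu and theta classes have near-identical copies, so how reads were divided among them is uncertain.

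Of the 3 mu class genes, 2 were higher. *Gstm6* (chr2:210733594-210738378, minus strand) measured 0.902, 2.51, 1.54, 1.78 and 0.218 CPM in WT, 16.7, 14.2, 10.2, 10.5 and 11.4 in HYP and 31.9, 58.0, 19.5, 17.1 and 14.1 in PCC. It was scarce in WT and above every WT sample in all 10 MENX samples, with log2 fold changes of 3.10 ± 0.43 in HYP (adjusted *p* = 0.00115) and 4.26 ± 0.61 in PCC (0.000562), the largest rise of the 68 tested members. PCC and HYP overlapped (1.06 ± 0.37, adjusted *p* = 0.107). *Gstm4* measured 19.5, 19.98, 20.2, 13.6 and 15.5 CPM in WT and 24.2, 25.9, 24.2, 41.0 and 45.9 in PCC, higher without overlap (0.81 ± 0.25, adjusted *p* = 0.0279).

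Of the 4 listed sulfotransferases, which add sulfate to phenols, steroids and amines, 2 were lower in PCC than in WT and 2 higher. *Sult1a1* (chr1:198100586-198104109, minus strand), a phenol sulfotransferase, measured 73.6, 64.1, 53.0, 47.4 and 12.4 CPM in WT, 11.3, 22.4, 21.1, 23.3 and 20.3 in HYP and 7.38, 5.05, 8.23, 6.09 and 6.5 in PCC. PCC lay below all samples of both other groups (-3.0 ± 0.42 vs. WT, adjusted *p* = 0.000516; -1.68 ± 0.24 vs. HYP, 0.00326). WT replicate 5 was as low as HYP, and HYP vs. WT was -1.41 ± 0.39 (0.0274). *Sult5a1* was also lower (-2.29 ± 0.52 in PCC vs. WT, adjusted *p* = 0.00568), at no more than 5.03 CPM in any sample. *Sult4a1* (chr7:124958546-124982566, minus strand), a brain-enriched member with no settled substrate, measured 27.8, 32.2, 23.6, 14.7 and 5.37 CPM in WT, 45.2, 37.7, 21.3, 32.6 and 44.4 in HYP and 58.7, 94.4, 79.6, 104 and 83.0 in PCC. It was higher in PCC than in every WT and HYP sample (1.93 ± 0.43 vs. WT, adjusted *p* = 0.00534; 1.10 ± 0.22 vs. HYP, 0.0145). *Sult2b1*, a sterol sulfotransferase, ranged over 0 to 0.852 CPM in WT, 0.980 to 1.78 in HYP and 2.23 to 6.52 in PCC, and was higher in PCC than in both (2.75 ± 0.62 vs. WT, adjusted *p* = 0.00594; 1.42 ± 0.36 vs. HYP, 0.0330). Of the UDP-glucuronosyltransferases only *Ugt8* is listed, at 0 to 0.396 CPM in WT and 0.278 to 3.90 in PCC.

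Flavin monooxygenases oxygenate nitrogen and sulfur atoms of drugs and metabolites, and *Fmo1*, *Fmo4* and *Fmo5* were lower in PCC than in WT. *Fmo1* (chr13:80712882-80745347, minus strand) measured 43.7, 26.0, 26.2, 19.0 and 5.01 CPM in WT, 16.1, 26.3, 33.5, 23.5 and 25.2 in HYP and 3.95, 1.30, 2.13, 0.618 and 2.89 in PCC. HYP lay within the WT range and the gene is not listed for that pair, while PCC lay below both groups with no overlap. The log2 fold change was -3.55 ± 0.61 vs. WT (adjusted *p* = 0.00140), the largest fall of the 68 tested members, and -3.61 ± 0.45 vs. HYP (0.00212). *Fmo5* fell earlier and measured 82.9, 71.7, 71.4, 80.9 and 66.7 CPM in WT, 34.7, 20.3, 38.8, 25.1 and 20.8 in HYP and 16.5, 7.75, 10.8, 10.4 and 22.3 in PCC. Both MENX groups lay below all WT samples (-1.45 ± 0.21 in HYP, adjusted *p* = 0.00130; -2.51 ± 0.27 in PCC, 0.000137), and PCC replicate 5 alone reached into HYP (-1.16 ± 0.32, 0.0467). *Fmo4* was lower in PCC (-1.55) and *Fmo2* did not pass (-1.30 ± 0.60, adjusted *p* = 0.136). *Fmo1*, *Fmo2* and *Fmo4* lie on chromosome 13 and *Fmo5* on chromosome 2.

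Aldehyde dehydrogenases oxidize aldehydes from lipids, amino acids, retinal and amines. Of the 9 tested, 6 were lower in PCC than in WT and 3 higher. *Aldh1l1*, which takes part in folate metabolism, measured 121, 99.1, 146, 125 and 273 CPM in WT, 94.8, 52.0, 86.6, 94.3 and 80.6 in HYP and 30.7, 7.56, 45.4, 4.23 and 58.8 in PCC. PCC and HYP lay below WT, where replicate 5 was highest (-2.40 ± 0.61 in PCC, adjusted *p* = 0.0109; -0.93 ± 0.27 in HYP, 0.0326). *Aldh7a1* and *Aldh6a1*, of amino acid breakdown, *Aldh1a3*, for retinal, and *Aldh1l2*, for folate, were lower in PCC than in WT with log2 fold changes of -1.41, -0.87, -1.63 and -2.07. *Aldh16a1* is listed for HYP vs. WT only and was lower there (-0.57 ± 0.18, adjusted *p* = 0.0490). *Aldh2*, the mitochondrial enzyme for acetaldehyde and for the aldehydes of monoamines, measured 421, 447, 502, 461 and 678 CPM in WT and 205, 91.0, 245, 48.1 and 425 in PCC. PCC replicate 5 lay inside the WT range and the test passed narrowly (-1.34 ± 0.46, adjusted *p* = 0.0446), and the value was 0.17 with the cortex level as a covariate.

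The 3 that rose were *Aldh5a1*, *Aldh3a2* and *Aldh1a1*. *Aldh5a1*, succinate semialdehyde dehydrogenase of the GABA shunt, measured 17.8, 21.9, 21.4, 15.6 and 24.3 CPM in WT, 27.5, 33.5, 23.2, 28.3 and 35.1 in HYP and 40.8, 35.2, 45.0, 44.2 and 43.1 in PCC. PCC values exceeded all WT values (1.0 ± 0.16, adjusted *p* = 0.000848). HYP lay between, with replicate 3 inside the WT range, and did not pass (0.49 ± 0.17 vs. WT, 0.0654). *Aldh3a2*, for fatty aldehydes, measured 51.1, 55.2, 67.5, 51.6 and 62.8 CPM in WT and 69.7, 92.3, 79.5, 104 and 72.8 in PCC (0.51 ± 0.16, adjusted *p* = 0.0305). *Aldh1a1*, a retinal dehydrogenase, was scarce: 0.664, 1.61, 0.743, 0.924 and 0 CPM in WT, 1.82, 5.32, 2.63, 2.06 and 2.35 in HYP and 1.49, 3.22, 5.15, 2.71 and 8.36 in PCC. Its PCC replicate 1 fell within the WT range (2.29 ± 0.70, adjusted *p* = 0.0273).

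*Adh4*, an alcohol dehydrogenase, measured 57.6, 49.9, 62.7, 57.3 and 72.6 CPM in WT, 46.3, 42.6, 49.6, 47.1 and 43.9 in HYP and 22.3, 22.4, 27.8, 18.4 and 36.8 in PCC. Its groups did not overlap. The log2 fold change was -1.26 ± 0.19 in PCC vs. WT (adjusted *p* = 0.000621), -0.42 ± 0.13 in HYP vs. WT (0.0445) and -0.96 ± 0.20 in PCC vs. HYP (0.0177). Scaled by the summed listed counts, its HYP vs. WT log2 fold change was 0.035, with the sign changed, and did not pass. *Cbr1*, a carbonyl reductase, measured 5.36, 7.15, 7.00, 11.1 and 13.4 CPM in WT, 7.28, 6.66, 12.1, 8.2 and 7.49 in HYP and 3.67, 1.59, 2.46, 1.09 and 2.93 in PCC. Like *Cat* and *Fmo1* it was in HYP as in WT and lower in PCC (-1.92 ± 0.35 vs. WT, adjusted *p* = 0.00186; -1.94 ± 0.36 vs. HYP, 0.0103), and its gene model lies inside that of LOC102556347 on the same strand. *Cbr4*, listed for HYP vs. WT only, was lower in HYP without overlap (14.7 to 17.7 CPM beside 20.1 to 27.5 in WT; -0.49 ± 0.15, adjusted *p* = 0.0396).

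Metallothioneins bind zinc and copper through cysteines and are induced by metals and glucocorticoids. *Mt2A* measured 130.5, 109, 94.2, 78.2 and 99.2 CPM in WT, 121, 32.1, 40.6, 43.1 and 34.5 in HYP and 109.9, 44.5, 31.5, 50.6 and 37.4 in PCC. Replicate 1 was the highest of its group in all 3 groups, and the PCC and WT ranges overlapped (-0.96 ± 0.32 in PCC vs. WT, adjusted *p* = 0.0410; -0.97 ± 0.35 in HYP vs. WT, 0.0822). Its upstream stretch of 250 bases (chr19:10838709-10838958, minus strand, GRCr8) is shown because it holds 5 matches to TGCNCNC. The matches were searched on both strands and are printed in capitals. This pattern is looser than the core of the metal response element, in which the first N is A or G. The match printed as GAGGGCA, on the other strand TGCCCTC, has C there. A match to TGCNCNC occurred in 40 of the 59 members' promoters (67.8%) and in 50.1% of all promoters, so the letters are common.
Mt2A: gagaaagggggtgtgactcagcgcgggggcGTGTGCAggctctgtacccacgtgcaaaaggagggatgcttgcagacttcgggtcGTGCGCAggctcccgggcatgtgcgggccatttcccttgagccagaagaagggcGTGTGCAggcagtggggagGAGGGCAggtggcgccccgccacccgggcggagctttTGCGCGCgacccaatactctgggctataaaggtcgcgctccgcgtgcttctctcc
*Mt1m* did not exceed 0.581 CPM in any WT or PCC sample. The core of the hypoxia response element, ACGTG on either strand, occurred in 17 of the 59 (28.8%) and in 19.7% of all promoters, and *Mt2A*, *Prdx1* and *Gpx1* are among the 17.

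The order of change was read from 1 fit of all 15 samples over the 56 members with values in all of them, with 5268 genes fitted. There, 9 members were lower in HYP than in WT and lower again in PCC than in HYP: *Sult1a1*, *Gss*, *Aldh7a1*, *Fmo5*, *Gpx1*, *Prdx1*, *Prdx2*, *Txn2* and *Txndc5*. Of all genes fitted, 2.98% had this pattern. Under alternatives chosen after seeing the data, the number of members with it was 0 with the cortex level as a covariate, 1 when scaled by the summed listed counts, 4 with library totals, 18 adjusted over the fitted genes and 27 with DESeq2 on each pair alone. In the edgeR fit of all 15 samples 54 of the 56 were called in PCC vs. WT, beside 93.6% of all genes, 47 of them lower, beside 43.3%. In the same fit 13 members were lower in HYP than in WT, beside 16.6% of all genes, and 28 lower in PCC than in HYP, beside 13.6%. A further 4 were lower in HYP than in WT without a call in PCC vs. HYP, 19 were lower in PCC than in HYP without a call in HYP vs. WT, and 15 were lower in PCC than in WT with a call at neither step. The group means themselves fell at both steps in 43 of the 56 members and rose at both in 6. The median ratio of means was 0.680 for HYP over WT, 0.549 for PCC over HYP and 0.341 for PCC over WT. In 5 members the HYP mean was above WT and the PCC mean below HYP. The shares over all genes were not computed for these means, nor for the patterns with a call at 1 or neither step. These counts are therefore not read as particular to the members. The number with calls at both steps moved with single samples, and was 15 without PCC replicate 5. It was 4 without HYP replicate 3 or 4 or PCC replicate 4. Without HYP replicate 2 or 5, PCC replicate 3 or WT replicate 4 it was 5. The share of all genes with this pattern was not computed under the alternatives or without these samples.

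The members were summarized by 1 level per sample, and whether single genes varied together was not tested. Their level in a sample, the median over the 56 genes of CPM divided by the WT mean, was 0.940, 0.896, 0.985, 1.02 and 1.12 in WT, 0.680, 0.561, 0.759, 0.678 and 0.611 in HYP and 0.404, 0.273, 0.347, 0.223 and 0.490 in PCC. The 3 groups did not overlap. The authors had called these 56 genes between these same groups, so this separation is not independent support. The level of all genes was not computed. Of the 48 members lower in PCC with values in all samples, 34 had their lowest PCC value in replicate 4 and 9 in replicate 2, and 28 had their highest in replicate 5. In WT, 25 of the 48 were highest in replicate 5. The same order over all genes lower in PCC was not computed, so it is not read as particular to the members.

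The cortex marker level, computed in the same way from 9 genes, stood beside these values at 0.516, 0.581, 1.05, 1.34 and 1.43 in WT, 0.418, 0.317, 0.657, 0.538 and 0.450 in HYP and 0.274, 0.0665, 0.230, 0.0258 and 0.363 in PCC. Within PCC, cortex markers and members put the 5 samples in the same order, from replicate 4 up to replicate 5. Within WT both were higher in replicates 3 to 5 than in 1 and 2. Of the 12 cortex markers tested in PCC vs. WT 9 were lower and none higher, and the median change was -2.30. The 10 chromaffin markers tested were all higher, at a median of 1.97.

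With the cortex level of each sample as a covariate, 9 of the 68 members were called in PCC vs. WT, all lower, beside 9.94% of all genes: *Aldh7a1*, *Fmo5*, *Gpx1*, *Gsto2*, *Msrb1*, *Prdx1*, *Prdx2*, *Sult1a1* and *Txndc5*. The fitted change was below 0 for 54 of the 68. None of the 9 higher members passed in that edgeR fit, and 4 of them (*Aldh1a1*, *Aldh5a1*, *Gstm6* and *Txnip*) had an unadjusted *p* under 0.05. In HYP vs. WT, 9 of 44 were called with the covariate (22.2% of all genes), *Fmo5*, *Gpx1*, *Gsta4*, *Gsto2*, *Gstt2*, *Prdx2* and *Sult1a1* lower and *Gstm6* and *Txnip* higher. In PCC vs. HYP 1 was called (3.43% of all genes), *Fmo1*. Cortex level and group go together across the samples, so the share of the members' fall that belongs to either cannot be told apart. In WT replicate 5, which with replicate 4 was richest in cortex transcripts, 25 of the 48 lower members had their WT maximum. A further 7 had their WT minimum there, with every PCC value below it. Among the 7 were *Sult1a1*, *Fmo1*, *Fmo5*, *Gss*, *Gsta4* and, narrowly, *Aldh1a3* (11.47 CPM, beside 11.46 in PCC replicate 5). These shares over all genes lower in PCC were not computed, and what they owe to cortex tissue was not tested.

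**Figure D4:**
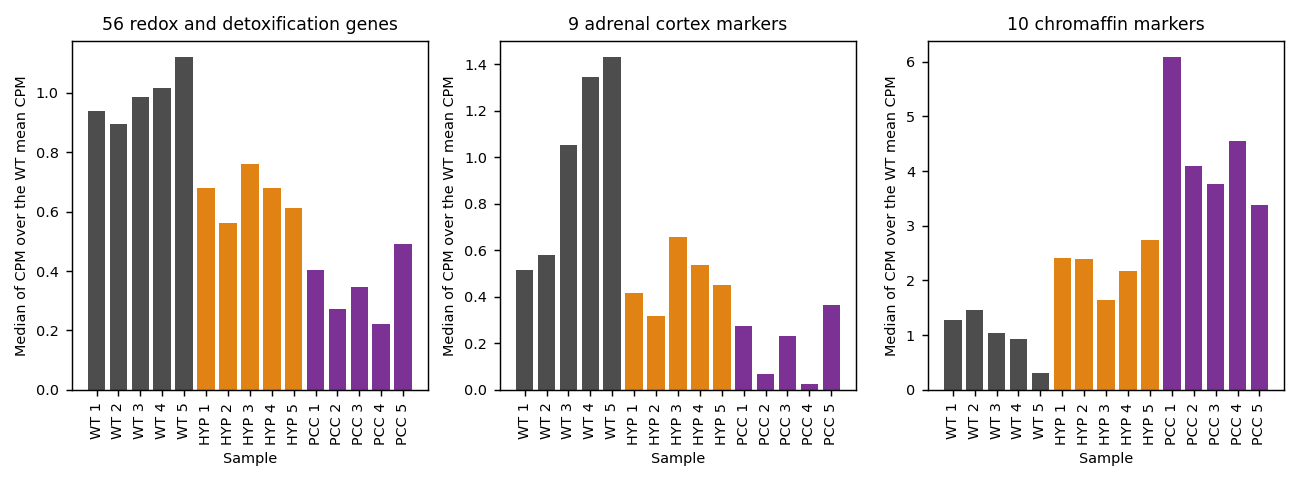
Bars give, for each of the 15 samples (x axis), the median of CPM over the WT mean (y axis, from 0) for the 56 members, 9 adrenal cortex markers and 10 chromaffin markers. Members and cortex markers are lowest in PCC replicates 4 and 2, and chromaffin markers are higher in every PCC and HYP sample than in every WT sample.

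Of 6 endothelial markers tested in PCC vs. WT 4 were lower and none higher, and in HYP vs. WT 5 of 5 were lower (median -0.76), with neither of the 2 tested called in PCC vs. HYP. Their summed level was 486 to 620.3 CPM in WT, 313 to 411 in HYP and 155 to 365 in PCC, and its part in the members' changes was not tested. Of 6 sustentacular and Schwann markers 4 were higher and 2 lower in PCC vs. WT. In PCC vs. HYP 2 were tested and both were lower. Their summed level was 45.1 to 94.6 CPM in WT, 58.7 to 93.6 in HYP and 16.9 to 55.0 in PCC. In PCC vs. WT 1 of the macrophage and leukocyte markers was tested and lower, and of hepatocyte markers likewise 1 (-3.15). None of the adipocyte and erythroid markers was tested in PCC vs. WT. The 1 hepatocyte marker was *Serpina1* and the 1 leukocyte marker *Cd14*.

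Over 6 lists of genes that feed or neighbor the same systems, 67 genes were tested in PCC vs. WT, of which 15 were higher and 48 lower, beside 46.7% and 38.5% of all genes tested. Scaled by the summed listed counts 17 were higher and 29 lower, beside 66.3% of all genes called in either direction. With library totals it was 17 and 34, beside 73.0%, and with the cortex level as a covariate 5 and 5, beside 9.94%. Of 15 tested genes of NADPH supply, which powers glutathione and thioredoxin reduction, 13 were lower in PCC than in WT and 1 higher (median -1.26). *Me3*, mitochondrial malic enzyme, fell most, from 15.0 to 85.3 CPM in WT to 1.33 to 7.38 in PCC (-3.65 ± 0.53, adjusted *p* = 0.000592). *Mthfd1l*, in this list for mitochondrial folate metabolism but not itself an enzyme that makes NADPH, rose from 5.81 to 8.44 to 27.4 to 37.5 CPM (2.14 ± 0.20, adjusted *p* = 9.87e-05). Of 19 genes of glutathione precursors, export and breakdown, 12 were lower and 5 higher (median -1.01). The amino acid transporter *Slc1a4* fell from 9.58 to 165 CPM to 6.93 to 7.52 (-3.85 ± 0.60, adjusted *p* = 0.000819). *Ggt7*, of the gamma-glutamyltransferase family, rose from 3.99 to 28.8 to 58.1 to 137 CPM (2.04 ± 0.48, adjusted *p* = 0.00702).

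Of 15 cytochrome P450 genes and their reductases, 11 were lower and 4 higher (median -1.50). *Cyp1b1* fell from 6109 to 15894 CPM to 109 to 2544 (-3.06 ± 0.72, adjusted *p* = 0.00698), and *Cyp2s1* rose from 0.106 to 0.805 to 2.51 to 8.62 CPM (3.12 ± 0.51, adjusted *p* = 0.00101). Aldo-keto reductases, which reduce aldehydes and steroids, were lower in 5 of 7 and higher in 1, led by *Akr1b8* (2192 to 5872 CPM in WT, 68.7 to 1034 in PCC; -2.95 ± 0.65, adjusted *p* = 0.00524). Of 6 genes of oxidant sources and amine oxidases 5 were lower and 1 higher. *Xdh*, xanthine dehydrogenase, fell (-2.82 ± 0.47, adjusted *p* = 0.00111), and *Nox4*, an NADPH oxidase that releases hydrogen peroxide, rose from 0.0726 to 0.379 to 2.02 to 4.76 CPM (4.07 ± 0.48, adjusted *p* = 0.000223). Of 5 genes of iron storage and ferroptosis, a cell death by lipid peroxidation, 3 were higher and 2 lower, from *Aifm2* (-2.22 ± 0.53, adjusted *p* = 0.00743) to *Slc11a2* (1.98 ± 0.32, 0.00101).

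Calls were tried with each sample left out. Of the 59 members called in PCC vs. WT, 51 kept the call in every trial. The share of all genes that kept theirs was not computed. *Sod2* lost it without PCC replicate 2 or 3, *Fmo4* without PCC replicate 4 or WT replicate 1, and *Aldh2*, *Mt2A*, *Aldh3a2*, *Aldh1a1*, *Gstm4* and *Mgst3* each lost it when any 1 of 4 to 8 particular samples was left out, with adjusted *p* up to 0.107. In HYP vs. WT 17 of 34 kept it. *Txndc16* lost it without WT replicate 3 or 4, *Prdx6* and *Txnrd2* without HYP replicate 2 or 5, *Mgst1* without HYP replicate 2, 4 or 5, *Gstt1* without HYP replicate 5, *Sult5a1* without HYP replicate 2 or 5 or WT replicate 1, and *Sult1a1*, *Aldh1l1*, *Sod3*, *Gstt3*, *Adh4*, *Gstp1*, *Mgst3*, *Cbr4*, *Aldh16a1*, *Msrb2* and *Txnrd3* each when any 1 of 4 to 9 particular samples was left out. The count of members called there was 34 with all samples, beside 72.1% of all genes. It was 20 without HYP replicate 2 (50.8% of all genes) and 18 without HYP replicate 5 (48.4%). In PCC vs. HYP 5 of 23 kept it in every trial (*Cat*, *Cbr1*, *Fmo1*, *Sult1a1* and *Aldh1l2*). The count of 23 (beside 44.4% of all genes) fell to 15, 7, 5 and 9 without HYP replicate 2, 3, 4 and 5. Of all genes 25.1%, 14.4%, 13.4% and 21.6% were then called. Without PCC replicate 2 and 3 it fell to 8 and 9, beside 22.2% and 24.5% of all genes. *Adh4* and *Sult4a1* lost the call without HYP replicate 4 only, and the other 16, *Sult2b1* among them, each when any 1 of 3 to 8 particular samples was left out, HYP replicate 3 or 4 among them, with adjusted *p* up to 0.124.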

How the data were processed

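RNA-seq libraries of adrenal medullary tissue from 5 WT, 5 HYP and 5 PCC rats were analysed, made with poly-T selection and a kit that does not mark strand. Per the labels, the authors aligned reads to the Rn06 build with HISAT2 (v2.0.5), counted them with featureCounts (v1.5.0-p3) and compared groups with DESeq2. For each of the 3 pairs of groups the deposited table holds, for the genes the authors called at an adjusted *p* under 0.05, raw read counts, size-factor normalised counts (a signal) and FPKM of 10 samples. The authors' log2 fold changes and p-values are in the deposited tables too and were not used, except that the count of genes in the authors' tests (18790 in PCC vs. WT, 18057 in HYP vs. WT and 17454 in PCC vs. HYP) was recovered from the ratio of their p-values.

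Counts of each table were fitted in R (v4.3.3) with edgeR (v4.0.16), using TMM factors, its filter on low counts and the quasi-likelihood test, two-sided. Benjamini-Hochberg adjustment took all genes of the authors' test into account, listed or not, with a threshold of 0.05. Tables hold called genes only, so TMM assumes that listed genes are balanced between groups. Fits covered 7001, 4108 and 3148 genes. CPM are on 1 scale for all 15 samples, with library totals recovered from counts and FPKM (16315018 to 23831269 reads on genes) and TMM factors over 5492 genes. FPKM, as deposited, were used where genes are compared with each other. The scripts were tested on simulated data. Replicates are different rats and replicate numbers do not pair them: same-numbered samples' deviations correlated between -0.23 and 0.26. p-values set the difference between groups against the spread between these rats. They rest on fits of genes that the authors had already called on the same samples. Per the paper, the PCC group holds both less advanced and advanced tumors, divided by adrenal weight. Which PCC samples are of which tumor stage is not in the labels, so they were kept together.

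The members and lists were chosen with earlier results of these data known. Members described singly were central genes of each family plus, per comparison, up to 10 called members a direction with the largest changes, a mean of at least 5 CPM and no overlap of groups. Alternatives comprised DESeq2 (v1.42.0), other scalings and filters, the replicate block, a cortex covariate, 1 fit of all 15 samples and leaving out each sample. Promoters were RefSeq's (GRCr8). The values of 1 gene are not reported here, though counts over all members include it. Figures were drawn with matplotlib (v3.10.9).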

Additional observations from a re-analysis of the deposited data

Results flagged for a closer look

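In a group of 5 samples, a sample stood apart when its gap to the nearest other sample exceeded Dixon's 95% limit of the group's range. This occurred in 23 of the 202 groups of member values (11.4%), where chance gives about 1 in 20, and 13 of these concern genes described singly. In WT, replicate 5 was high in *Gstt3* (546 CPM, nearest other 386) and *Aldh1l1* (273, nearest 146), and replicate 1 in *Gpx4* (2.75, nearest 1.01). In HYP, replicate 1 was low in *Sult1a1* (11.3 CPM, nearest 20.3) and high in *Mt2A* (121, nearest 43.1) and *Hmox1* (83.1, nearest 34.9). HYP replicate 3 was high in *Gclc* (319 CPM, nearest 231) and *Cbr1* (12.1, nearest 8.2), and replicate 2 in *Aldh1a1* (5.32, nearest 2.63).

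In PCC, replicate 1 was high in *Mt2A* (109.9 CPM, nearest 50.6), *Sod1* (225, nearest 175) and *Txn1* (74.7, nearest 36.0), and replicate 4 in *Hmox1* (277, nearest 109). PCC replicate 4 was at the same time the lowest PCC sample in 34 of the 48 members lower in PCC with values in all samples. The share over all genes lower in PCC was not computed. *Mt2A* and *Hmox1* each had a sample apart in both HYP and PCC.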

How the results depend on the processing

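Over 95 pairs of a comparison and a gene given with full values by the naming rule, 1986 values were computed under alternatives. Direction and side of the threshold were kept in 1589, the call was lost in 320 and gained in 71, and 6 changed sign. With the cortex level as a covariate these were *Aldh2* (0.17), *Hmox1* (-0.49) and *Sod2* (0.16) in PCC vs. WT and *Sod2* (0.44) in HYP vs. WT, and with the total of listed counts *Adh4* (0.035) and *Sod1* (0.061) in HYP vs. WT.

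In PCC vs. WT 59 of 68 members were called (beside 85.2% of all genes), and 9 with the cortex covariate (9.94%). With a sample left out it was 54 to 60 (70.9% to 82.9%). Of 67 other pathway genes 63 were called, and 10 with the covariate. With a sample left out it was 53 to 62 of 67 to 69 tested. In HYP vs. WT 34 of 44 members were called (beside 72.1% of all genes), and 17 of 56 with all 15 samples in 1 fit (44.2%). It was 8 when a change of at least 2-fold was also required (40.9%) and 9 with the covariate (22.2%). Library totals gave 20 (58.1%) and the total of listed counts 9 (53.6%). With a sample left out it was 18 to 30 (48.4% to 77.1%). Of 34 other pathway genes 17 were called there, with DESeq2 26 (89.1% of all genes) and adjusted over the fitted genes 34 (99.5%). At 2-fold it was 6, with the covariate 4, with library totals 11 and with the listed total 5, beside the shares just given. With a sample left out it was 11 to 21 of 35 or 36 tested.

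In PCC vs. HYP 23 of 44 members were called (beside 44.4% of all genes), with DESeq2 42 (70.2%) and adjusted over the fitted genes 44 (96.5%). At 2-fold it was 15 (33.0%), with the covariate 1 (3.43%) and with the listed total 11 (35.2%). With a sample left out it was 5 to 33 (13.4% to 55.8%). Of 49 other pathway genes 24 were called there, with DESeq2 45, adjusted over the fitted genes 49 and with the covariate 3, beside the same shares. With a sample left out it was 10 to 32 of 49 or 50 tested. The number of members lower at both steps, 9, was 18 adjusted over the fitted genes, 0 with the covariate, 4 with library totals, 1 with the listed total, 12 when each pair was fitted alone, 27 with DESeq2 on each pair alone and 4 to 15 with a sample left out. The alternatives to this number were chosen after seeing the data. Of the edgeR fit with the covariate that gave 0, 8 members had an unadjusted *p* under 0.05 at both steps, and no other tool was run with it. The median member level in PCC, 0.347, was 0.478 with the listed total. The cause of these differences was not tested.

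Replicate numbers do not mark shared animals. With the number as a replicate block, 57 members were called between PCC and WT (beside 71.9% of all genes), 26 between HYP and WT (55.7%), and 4 between PCC and HYP (11.6%), where 10 other pathway genes passed. At both steps 10 were lower.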
